A study of Saccharomyces cerevisiae with 9 samples.

Results

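The glyoxylate cycle and gluconeogenesis were followed in yeast through 10 genes: the enzymes and carrier ICL1, MLS1, MDH2, SFC1, ACS1, PCK1 and FBP1, and the transcriptional activators CAT8, SIP4 and ADR1. The genes were chosen by name as glucose-repressed enzymes and their activators, with earlier results of these data known. Setting their counts and medians beside those of all genes is therefore description only. Each gene was found by the systematic name that the array gives its probe. All 10 of 10 were on the array, which covered 6199 genes with 6256 probes of 7 spots each, and all 10 were among the 5820 genes tested. All samples were of the diploid Saccharomyces cerevisiae strain BY4743, with 3 arrays in each of 3 groups: vehicle control, HenGC-treated and SoyGC-treated. HenGC is GC from an edible mushroom, hen of the woods, and SoyGC is GC from soybean. Both were used at 40 ug/ml for 17 h, and the labels give no dose or time for the vehicle. The labels do not spell out GC, describe no other difference between the groups, and do not say whether the 3 samples of a group were separate cultures, so the p-values reflect array-to-array spread that may be technical.

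Yeast growing on acetate, ethanol or fatty acids has to build sugar from 2-carbon units. The glyoxylate cycle bypasses the steps of the citrate cycle that release carbon dioxide and so yields malate, and gluconeogenesis turns the resulting oxaloacetate into sugar phosphates. While glucose is present these genes are repressed. When it runs out, the Snf1 kinase relieves repression by Mig1 and activates Cat8 and Adr1, and Cat8 in turn promotes transcription of SIP4 and, with Sip4, of the enzyme genes through a shared promoter element. When glucose returns, the GID ubiquitin ligase marks several of these enzymes for degradation.

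Levels are log2 values of the fluorescence relative to the 75th percentile of the same array, so they compare 1 gene across arrays and say nothing about which of 2 genes is more abundant. Each array had 43792 spots, of which 92.4% to 95.8% were well above background and 0 saturated. The auxotrophic markers of this strain, HIS3, LEU2 and URA3, gave no signal well above background on any array (0 of 9). Vehicle 3 stood apart from its group mates, from which it differed over 2-fold at 558 and 493 genes, while vehicle 1 and 2 differed from each other over 2-fold at 0 genes. The third array of each group was hybridised on slide 3 and scanned on scan day 2. On scan day 1, slide 1 held vehicle and SoyGC arrays and slide 2 held HenGC arrays alone, so slide and group cannot be told apart for HenGC on that day.

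The first enzymes of the glyoxylate branch had their lowest mean in SoyGC, and in HenGC they were split between the third array and the other two. ICL1 encodes isocitrate lyase, which cleaves isocitrate into succinate and glyoxylate. Its level was -2.13, -1.98 and -1.70 in vehicle 1 to 3, -2.35, -2.47 and -0.81 in HenGC 1 to 3, and -2.77, -2.80 and -2.99 in SoyGC 1 to 3. All SoyGC arrays lay below all other arrays, and HenGC 3 lay above all other arrays. MLS1 encodes malate synthase, which joins glyoxylate with acetyl-CoA. Its level was -3.90, -3.56 and -3.31 in vehicle, -3.92, -3.92 and -2.31 in HenGC, and -4.32, -3.91 and -4.27 in SoyGC. HenGC 3 was again the highest of the 9 arrays, and the SoyGC arrays lay below vehicle but overlapped HenGC 1 and 2.

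MDH2, the cytosolic malate dehydrogenase that turns malate into oxaloacetate, was the steadiest of the 10 genes, with a range of 0.47 over the 9 arrays. It stood at 0.78, 0.84 and 0.60 in vehicle, 1.07, 0.85 and 0.81 in HenGC, and 0.65, 0.76 and 0.82 in SoyGC, with the groups overlapping. SFC1 encodes the mitochondrial carrier that exchanges succinate, the other product of isocitrate lyase, for fumarate. Its level was -6.57, -5.97 and -6.80 in vehicle, -6.96, -7.17 and -6.06 in HenGC, and -7.71, -7.49 and -7.30 in SoyGC. The SoyGC arrays lay below all others, although the probe was dim and well above background on 1 of 3 SoyGC arrays. ACS1 encodes an acetyl-CoA synthetase, which supplies acetyl-CoA from acetate. It stood at -1.85, -1.87 and -1.58 in vehicle, -2.31, -2.08 and -2.13 in HenGC, and -2.51, -2.58 and -2.69 in SoyGC. For ACS1 the 3 groups did not overlap, with vehicle highest and SoyGC lowest.

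The gluconeogenic enzymes had the pattern of ICL1. PCK1 encodes phosphoenolpyruvate carboxykinase, which commits oxaloacetate to sugar synthesis. Its level was -3.15, -3.16 and -2.75 in vehicle, -3.43, -3.71 and -2.31 in HenGC, and -3.87, -3.83 and -3.64 in SoyGC. FBP1 encodes fructose bisphosphatase, the step that reverses phosphofructokinase. Its level was -3.89, -3.58 and -3.17 in vehicle, -4.14, -4.23 and -2.50 in HenGC, and -4.54, -4.60 and -4.74 in SoyGC. For both genes HenGC 3 was the highest array and SoyGC lay below vehicle throughout. For FBP1 the SoyGC arrays lay below the HenGC arrays too, while for PCK1 those 2 groups overlapped.

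None of the 3 activators was highest on HenGC 3. CAT8, a zinc cluster activator of gluconeogenic genes, stood at -1.70, -2.02 and -2.03 in vehicle, -0.90, -1.21 and -1.34 in HenGC, and -1.63, -1.55 and -1.76 in SoyGC. All HenGC arrays lay above all others, while SoyGC overlapped vehicle. SIP4, a second zinc cluster activator that binds the same promoter element, stood at -6.78, -6.90 and -7.18 in vehicle, -6.78, -6.96 and -7.14 in HenGC, and -7.24, -7.56 and -7.42 in SoyGC. SoyGC was below both other groups, with the probe well above background on 2 of 3 SoyGC arrays. ADR1, a zinc finger activator of genes for ethanol, glycerol and fatty acid use, stood at -2.45, -2.54 and -2.37 in vehicle, -2.47, -2.66 and -2.67 in HenGC, and -2.82, -2.98 and -3.14 in SoyGC. The SoyGC arrays again lay below all others.

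**Figure D1:**
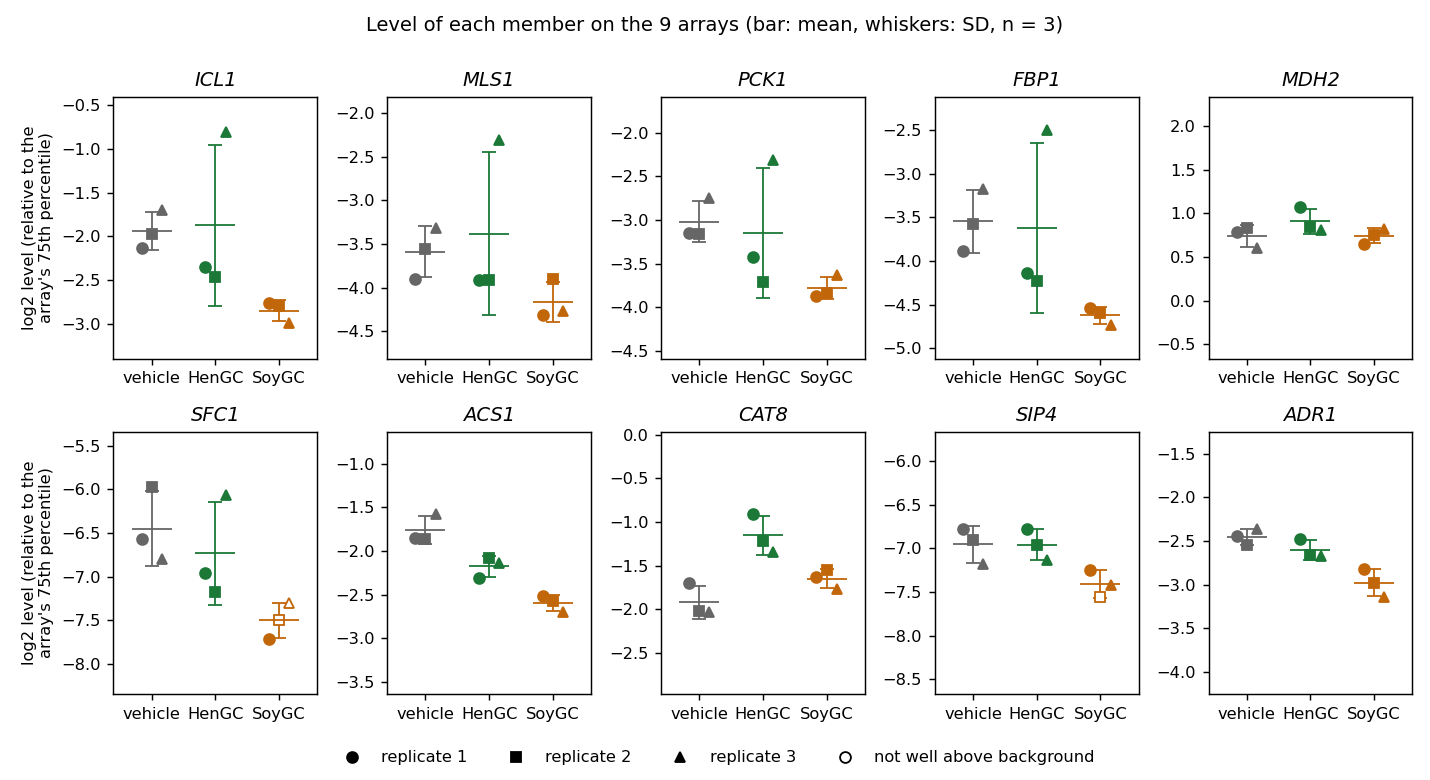
Log2 level (vertical axis, relative to the 75th percentile of the array) of each of the 10 genes on the 9 arrays, by group, with the replicate number as the symbol; bars are means and whiskers SD over 3 arrays, every panel spans the same height, and open symbols mark arrays where the probe was not well above background. In ICL1, MLS1, PCK1 and FBP1 the third HenGC array is the highest of the 9, and in ICL1, FBP1, SFC1, ACS1, SIP4 and ADR1 the 3 SoyGC arrays lie below the 6 others.

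The comparison of SoyGC with vehicle asked which of these genes differed after exposure to the soybean preparation. ACS1 fell 1.78-fold (log2 -0.83 ± 0.11, SE, n = 3 per group), from -1.76 ± 0.16 (SD) in vehicle to -2.59 ± 0.09 in SoyGC. ADR1 fell 1.44-fold (-0.53 ± 0.11), from -2.45 ± 0.09 to -2.98 ± 0.16. The adjusted p in limma was 0.0123 for ACS1 and 0.0321 for ADR1. These were 2 of the 10 members past the threshold of an adjusted p under 0.05, against 9.24% of all genes tested, and 0 members rose. ACS1 passed in 22 of 25 alternatives and ADR1 in 13 of 25. ADR1 had an adjusted p of 0.0604 without vehicle 3, 0.0561 with slide as a fixed block and 0.0661 with only the SoyGC and vehicle arrays in the fit.

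FBP1, SFC1, ICL1, PCK1 and MLS1 had differences from vehicle larger than that of ADR1 and did not pass. FBP1 was at -1.08 ± 0.41 (95% interval -2.0 to -0.15, adjusted p = 0.125), SFC1, measured well above background on 1 of 3 SoyGC arrays, at -1.05 ± 0.30 (-1.74 to -0.37, adjusted p = 0.0603), ICL1 at -0.92 ± 0.38 (-1.77 to -0.06, adjusted p = 0.156) and PCK1 at -0.76 ± 0.31 (-1.47 to -0.05, adjusted p = 0.157) in limma's test. Their SE took in HenGC 3, because 1 estimate of the spread was shared by the 3 groups. Without HenGC 3 the differences from vehicle stayed the same by construction. ICL1, PCK1, FBP1 and SFC1 then had adjusted p of 0.0262, 0.0427, 0.0336 and 0.0439 in limma's test. In that fit 6 of 10 members passed, all lower, against 4.97% of all genes tested. That share is not a like measure. HenGC 3 ranked 5, 8, 1 and 13 of 5820 genes in its excess over HenGC 1 and 2 at ICL1, PCK1, FBP1 and SFC1. Leaving it out therefore narrowed the spread at these genes in particular, and the same holds for every fit without HenGC 3. Without vehicle 3 those 4 genes had adjusted p of 0.290, 0.312, 0.265 and 0.0649. In limma's test with only the SoyGC and vehicle arrays, ICL1 and ACS1 passed (adjusted p of 0.0463 and 0.0449), against 0.859% of all genes. PCK1, FBP1 and SFC1 did not pass there (0.0555, 0.0519 and 0.0617). With slide as a fixed block ICL1, PCK1 and FBP1 passed (adjusted p of 0.0388, 0.0388 and 0.0396 in limma's test), against 3.21% of all genes. SFC1 did not pass there (0.0514). Over 25 alternatives, or 24 for SFC1, ICL1 passed in 5, PCK1 in 3, FBP1 in 5 and SFC1 in 5. MLS1 was at -0.58 ± 0.39 (-1.47 to 0.32, adjusted p = 0.382) and, without HenGC 3, had an adjusted p of 0.0829. SIP4 was at -0.45 ± 0.14 (-0.77 to -0.13, adjusted p = 0.0791, and 0.0482 with scan day as a block), CAT8 at 0.27 ± 0.14 (-0.05 to 0.59, adjusted p = 0.254) and MDH2 at 0.00 ± 0.11 (-0.24 to 0.25, adjusted p = 0.989).

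In 8 of the 10 genes, all but MDH2 and CAT8, the SoyGC and vehicle arrays did not overlap, and SoyGC was the lower group in each. Such a separation in the downward direction was found at 20.5% of all genes, the upward one at 13.6% and either at 34.2%. The 8 include SFC1 and SIP4, which were well above background on 1 of 3 and 2 of 3 SoyGC arrays. Both entered the test through vehicle and HenGC, where they were brighter, so their separation is limited by background. For MLS1 the gap was narrow, with the highest SoyGC array at -3.906 and the lowest vehicle array at -3.898. At an unadjusted p under 0.05 there were 7 members, SFC1 and SIP4 among them, against 27.6% of all genes. The median difference over the members, SFC1 and SIP4 included, was -0.67, against 0.0037 over all genes tested. The members were chosen with earlier results known, so these counts and this median are description only. Within scan day 1 the differences of ACS1 and ADR1 were -0.69 and -0.40, and within scan day 2, which had 1 array per group, -1.11 and -0.77. The count of members past the threshold was 0 without SoyGC 3 and 1 without SoyGC 1, SoyGC 2, vehicle 1, vehicle 2 or vehicle 3. It was 5 without vehicle 3 and HenGC 3 together, and 3 on scan day 1 alone. The share of all genes past it was 0.67%, 0.825% and 0.0344% without SoyGC 1, 2 and 3. Without vehicle 1, 2 and 3 that share was 6.65%, 0.378% and 2.92%. Without vehicle 3 and HenGC 3 together it was 2.63%, and on scan day 1 alone 0.601%.

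The comparison of HenGC with vehicle asked the same of the mushroom preparation. CAT8 rose 1.70-fold (log2 0.77 ± 0.14, SE, n = 3 per group), from -1.92 ± 0.19 (SD) in vehicle to -1.15 ± 0.23 in HenGC, with an adjusted p of 0.0451 in limma's test. The difference was 0.80 on scan day 1 and, with 1 array per group, 0.69 on scan day 2. CAT8 was the 1 member past the threshold, against 1.19% of all genes tested, and the call was lost without any 1 of the 9 arrays, with adjusted p then between 0.0675 and 0.169. ACS1 was at -0.41 ± 0.11 (95% interval -0.67 to -0.16, adjusted p = 0.113) in limma's test. CAT8 and ACS1 were the 2 members whose HenGC and vehicle arrays did not overlap, a separation that 30% of all genes showed, 12.2% with HenGC higher and 17.8% with HenGC lower.

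For the enzymes with the split HenGC group the mean difference from vehicle hid arrays on either side. ICL1 was at 0.06 ± 0.38 (95% interval -0.79 to 0.92), MLS1 at 0.21 ± 0.39 (-0.68 to 1.1), PCK1 at -0.13 ± 0.31 (-0.84 to 0.58), FBP1 at -0.08 ± 0.41 (-1.0 to 0.85) and SFC1 at -0.28 ± 0.30 (-0.96 to 0.40). Within scan day 1 these 5 genes were at -0.35, -0.19, -0.41, -0.45 and -0.79, and within scan day 2 at 0.90, 1.01, 0.44, 0.67 and 0.74, so the direction differed between the days for each. With slide as a fixed block, where the contrast leans on slide 3, they were at 1.08, 1.20, 0.50, 0.91 and 0.46, and none passed. Their adjusted p in limma's test lay between 0.569 and 0.926. MDH2 was at 0.17 ± 0.11 (-0.08 to 0.42), SIP4 at -0.00 ± 0.14 (-0.33 to 0.32) and ADR1 at -0.15 ± 0.11 (-0.40 to 0.10), and these did not pass either. The median over the 10 members was -0.04.

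**Figure D2:**
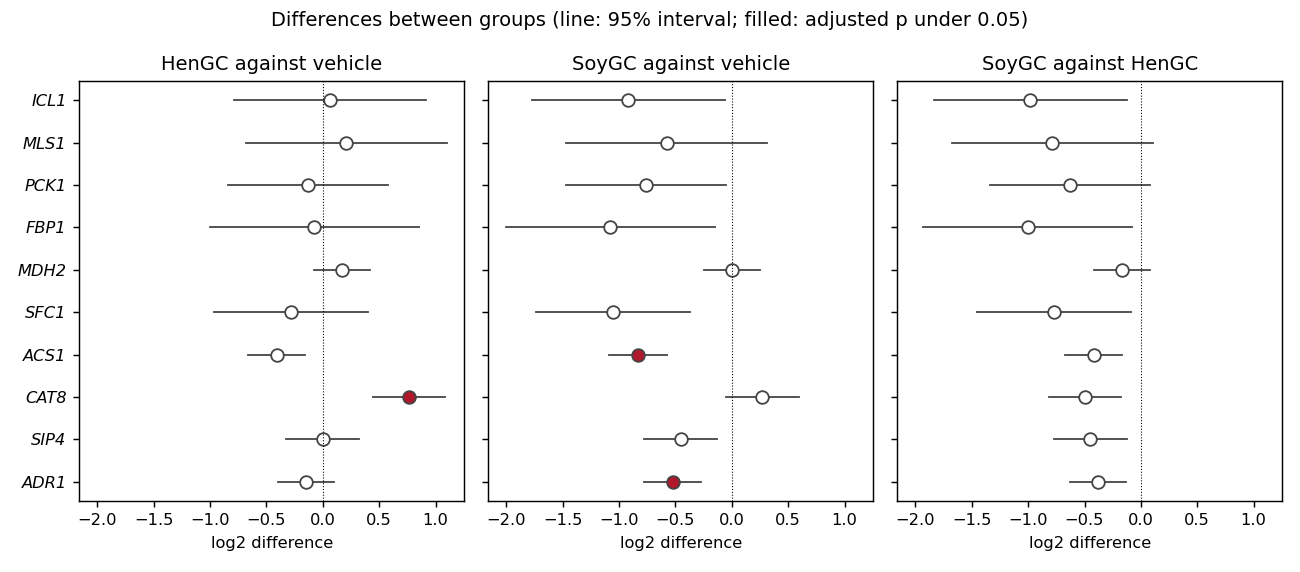
Log2 difference between groups (horizontal axis) for each of the 10 genes in the 3 comparisons; circles are fitted differences, lines their 95% intervals, and filled circles have an adjusted p under 0.05. ACS1 and ADR1 are filled in SoyGC against vehicle and CAT8 in HenGC against vehicle, while the intervals of ICL1, MLS1, PCK1 and FBP1 are wide in all 3 panels.

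The preparations were compared with each other at the same dose and time, as 1 pair. The fitted difference of SoyGC from HenGC was negative for 10 of 10 members, where 52.9% of all genes were negative, and 0 members passed in limma's test. At an unadjusted p under 0.05 there were 7, against 12.6% of all genes, and with array weights 0 members had an adjusted p under 0.05. Over all genes 0% were called. FBP1 was at -1.0 ± 0.41 (95% interval -1.93 to -0.08, adjusted p = 0.370), ICL1 at -0.98 ± 0.38 (-1.83 to -0.13, adjusted p = 0.360) and CAT8 at -0.50 ± 0.14 (-0.82 to -0.17, adjusted p = 0.288). ACS1 was at -0.42 ± 0.11 (-0.68 to -0.16, adjusted p = 0.279), SIP4 at -0.45 ± 0.14 (-0.77 to -0.13) and ADR1 at -0.38 ± 0.11 (-0.63 to -0.13). MDH2 was the closest to 0, at -0.17 ± 0.11 (-0.41 to 0.08). The 2 groups did not overlap at 7 members (ICL1, FBP1, SFC1, ACS1, CAT8, SIP4 and ADR1), with SoyGC lower in each, where 10.5% of all genes separated in that direction. SFC1 and SIP4, also among the 7 at an unadjusted p under 0.05, were well above background on 1 of 3 and 2 of 3 SoyGC arrays. Both entered the test through vehicle and HenGC, where they were brighter, so their part in these counts is limited by background. With slide as a fixed block FBP1 and ICL1 were at -1.99 and -2.0 (adjusted p of 0.199 and 0.193). Without HenGC 3 the differences of FBP1 and ICL1 were -0.44 and -0.45, while those of ACS1, CAT8 and ADR1 were -0.40, -0.59 and -0.41. Both comparisons with vehicle used the same 3 vehicle arrays, so their values are not independent of each other.

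HenGC 3 differed from the other HenGC arrays at few genes. It exceeded the mean of HenGC 1 and 2 by at least 1 on the log2 scale at 13 of 5820 genes, and 5 of the 13 were members: FBP1 by 1.68, MLS1 by 1.61, ICL1 by 1.60, PCK1 by 1.26 and SFC1 by 1.01. FBP1 ranked 1 of all genes in this difference, MLS1 3, ICL1 5, PCK1 8 and SFC1 13. The linear signals were 300, 286 and 1379 for FBP1 and 1037, 969 and 4454 for ICL1 on HenGC 1 to 3, while the SD among the spots of a probe on 1 array was at most 0.29 on the log2 scale over all members and arrays. ACS1 was at 0.06, ADR1 at -0.10, MDH2 at -0.15, SIP4 at -0.27 and CAT8 at -0.28, all within the 5th to 95th percentile of all genes, -0.39 to 0.37. The other 8 genes, named here after their values were seen, were the hexose transporter HXT5 (1.36), the minor pyruvate decarboxylase PDC6 (1.17), the plasma membrane proton pump PMA2 (1.01), FCY22 (1.63), YCR013C (1.61), PAU17 (1.32), YLR076C (1.21) and YPR002C-A (1.20). Among the 110 other genes of the pathway lists described next, 0 reached 1, and the highest was PUT4 at 0.77. In the other direction 3 of the 5820 genes lay at least 1 below the mean of HenGC 1 and 2. RGI2 of those lists, at -1.99, was the lowest of all genes, and POX1 and POT1 were at -0.92 and -0.81.

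The third arrays of the other groups, which shared slide and scan day with HenGC 3, gave other values. Vehicle 3 exceeded vehicle 1 and 2 by 0.56 for FBP1, 0.41 for MLS1, 0.41 for PCK1 and 0.35 for ICL1, and stood at -0.53 from them for SFC1. SoyGC 3 lay between -0.23 and 0.30 of its mates at every member. With 1 array per group on scan day 2, a difference between the days cannot be told apart from a difference between single arrays. What set HenGC 3 apart was not tested.

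**Figure D3:**
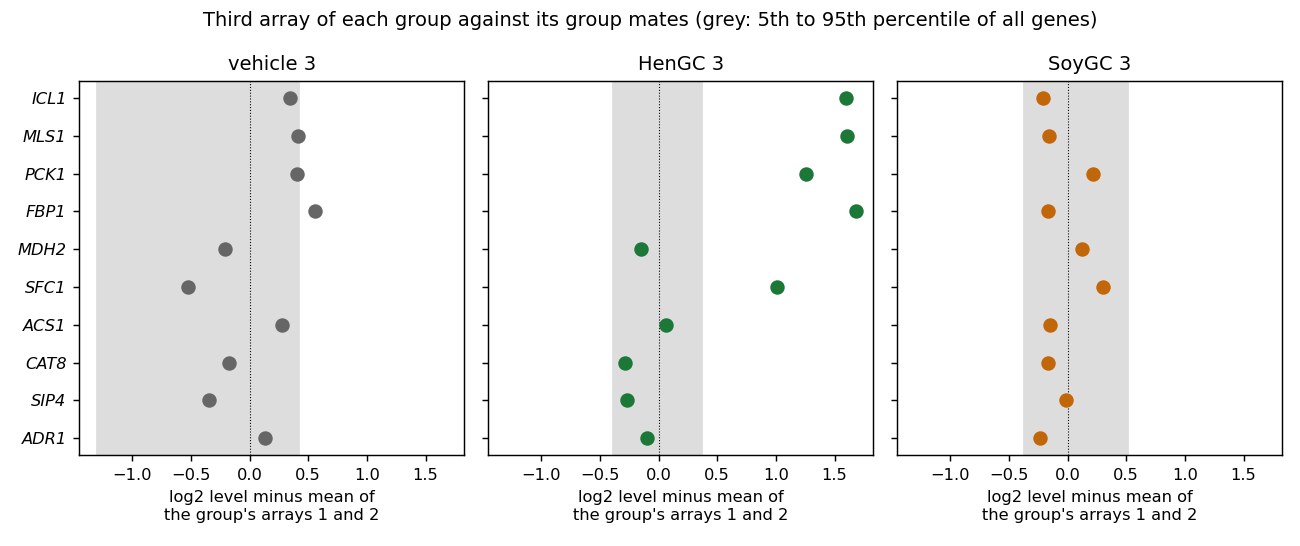
Log2 level of the third array of each group minus the mean of arrays 1 and 2 of the same group (horizontal axis) for the 10 genes; the grey band spans the 5th to 95th percentile of the 5820 genes tested. In HenGC, FBP1, MLS1, ICL1, PCK1 and SFC1 lie from 1.01 to 1.68, far right of the band, and the other 5 members lie inside it.

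Genes that neighbour the members in metabolism or regulation were taken as 9 lists with 110 distinct genes, 110 of which were tested. The lists were chosen with earlier results of these data known, so setting their counts beside those of all genes is description only. In SoyGC 19 of the 110 fell and 0 rose, where 5.93% of all genes tested fell and 3.32% rose, and their median difference was -0.15. In HenGC 2 rose and 1 fell, where 0.911% rose and 0.275% fell, with a median of -0.01. Between SoyGC and HenGC 0 of the 110 passed in limma's test, 36 had an unadjusted p under 0.05, against 12.6% of all genes, and 89 were negative, against 52.9% of all genes. The SoyGC count changed as arrays were left out, and so did the share of all genes called, 9.24% in the main fit. Without vehicle 1, 2 and 3 the count was 9, 3 and 9, and the share 6.65%, 0.378% and 2.92%. Without SoyGC 1, 2 and 3 the count was 4, 5 and 0, and the share 0.67%, 0.825% and 0.0344%. Without HenGC 2 they were 11 and 4.78%, and without vehicle 3 and HenGC 3 together 10 and 2.63%. The HenGC count was 0 or 1 without any 1 array, and the share then 0.0515% to 0.859%, against 1.19% with all.

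Of 21 genes for isoenzymes and neighbouring steps of the glyoxylate and citrate cycles, 3 fell in SoyGC. CIT2, the peroxisomal citrate synthase that feeds the glyoxylate cycle, stood at 1.80, 1.96 and 2.16 in vehicle, 1.11, 1.30 and 1.40 in HenGC and 1.15, 1.39 and 1.04 in SoyGC, so both treated groups lay below vehicle. It fell by 0.78 ± 0.13 in SoyGC (adjusted p = 0.0237 in limma's test) and by 0.70 ± 0.13 in HenGC (adjusted p = 0.0496). DAL7, a second malate synthase gene that belongs to allantoin use, fell 2.17-fold in SoyGC (-1.12 ± 0.27, adjusted p = 0.0404) and was at -1.0 ± 0.27 in HenGC (adjusted p = 0.110). SDH1, a succinate dehydrogenase subunit, fell by 0.43 ± 0.11 in SoyGC. Without vehicle 3, DAL7 and SDH1 no longer passed in SoyGC (adjusted p of 0.0850 and 0.0792), nor did CIT2 in HenGC (0.0867). Of the isoenzymes, MDH1 and MDH3, the mitochondrial and peroxisomal malate dehydrogenases, were at 0.18 ± 0.24 and -0.07 ± 0.11 in SoyGC, and ICL2, a mitochondrial relative of ICL1, was at -0.07 ± 0.09. The probes were not tested for cross-hybridisation between such relatives.

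Among 9 other genes reported to depend on Cat8, 3 fell in SoyGC: the acetate transporter gene ADY2 (-3.82 ± 0.43), the lactate permease gene JEN1 (-3.20 ± 0.35) and RGI2, a gene of respiratory growth (-3.90 ± 0.56), with adjusted p in limma's test of 0.00916, 0.00916 and 0.0150. In HenGC these were at -1.77, -1.62 and -1.14 and did not pass. On the Cat8 list HenGC 3 was the highest HenGC array for IDP2, the amino acid permease gene PUT4 and the carnitine acetyltransferase gene YAT2, at 0.57, 0.77 and 0.28 above the mean of its mates, and not for the other 6. JEN1 stood at -1.68, -3.29 and -2.35 in HenGC 1 to 3, and RGI2 at -2.48, -4.12 and -5.29. Within HenGC, RGI2 was thus lowest on HenGC 3, where ICL1, MLS1, PCK1, FBP1 and SFC1 were highest. The SoyGC arrays lay lower still for RGI2, at -6.85, -6.51 and -6.82. Of 15 other genes reported to depend on Adr1, 4 fell in SoyGC, namely ADY2, the thiolase gene POT1 (-2.07 ± 0.34), the acyl-CoA oxidase gene POX1 (-1.24 ± 0.29) and the peroxisomal reductase gene SPS19 (-0.49 ± 0.13). In HenGC the glycerol kinase gene GUT1 of that list rose 1.48-fold (0.57 ± 0.11, adjusted p = 0.0496), and its adjusted p was 0.0912 without vehicle 3. Without vehicle 3, POX1 and SPS19 had adjusted p of 0.0683 and 0.0860. ADY2 is on both lists, and the medians of the lists in SoyGC were -0.41 and -0.23.

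Of 10 genes for acetyl-CoA supply and the carnitine shuttle, AGP2, a plasma membrane protein of carnitine uptake, fell in SoyGC (-0.73 ± 0.12, adjusted p = 0.0207 in limma's test). The acetyl-CoA synthetase gene ACS2, which is used on glucose, was at -0.26 ± 0.10 in SoyGC (adjusted p = 0.133). In HenGC 0 of these genes passed, and the largest difference was that of the carnitine acetyltransferase gene CAT2 (0.53 ± 0.14).

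Of 25 genes for the Snf1 kinase, repressors and other activators, TOS3, a kinase that acts on Snf1, fell 1.97-fold in SoyGC (-0.98 ± 0.18, adjusted p = 0.0273 in limma's test) and was at -0.77 ± 0.18 in HenGC (adjusted p = 0.0791). HXK2, the hexokinase that also takes part in glucose repression, fell by 0.46 ± 0.12 in SoyGC (adjusted p = 0.0441, and 0.0918 without vehicle 3). The repressor gene MIG1 was at 0.14 ± 0.26 in SoyGC and 0.48 ± 0.26 in HenGC and did not pass. The list's median in SoyGC was -0.01.

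Of 10 genes of the GID ubiquitin ligase, RMD5, a catalytic subunit, and VID24, the subunit that recognises the gluconeogenic enzymes, fell in SoyGC (-0.52 ± 0.11 and -0.58 ± 0.14, adjusted p of 0.0306 and 0.0419 in limma's test). GID10, an alternative recognition subunit, rose 1.61-fold in HenGC (0.69 ± 0.13, adjusted p = 0.0496), standing at -5.88, -5.87 and -5.98 in vehicle and -5.16, -5.01 and -5.49 in HenGC. Without vehicle 3, VID24 and GID10 had adjusted p of 0.0741 and 0.0912.

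Of 9 genes for irreversible glycolytic steps and their effectors 4 fell in SoyGC and 0 rose: PFK27, a kinase that makes the activator of phosphofructokinase (-0.95 ± 0.13), the phosphofructokinase subunit genes PFK2 and PFK1 (-0.68 ± 0.13 and -0.49 ± 0.11) and the glucokinase gene GLK1 (-0.57 ± 0.14). Their adjusted p in limma's test was 0.0123, 0.0291, 0.0381 and 0.0424, and without vehicle 3 it was 0.0220, 0.0552, 0.0741 and 0.0799. In HenGC 0 of these passed, and PFK27 was at -0.58 ± 0.13 (adjusted p = 0.0692). The 10 genes of the reversible steps, which serve both directions, gave 0 past the threshold in either comparison with vehicle, and 4 of the 10 had SoyGC and vehicle arrays that did not overlap, near the 34.2% of all genes. Their largest difference was -0.29 ± 0.10, for TDH2 in SoyGC, and several of them have near-identical copies whose signals cannot be assigned with certainty. Of 9 other mitochondrial carriers MPC3, a subunit of the pyruvate carrier, fell 1.98-fold in SoyGC (-0.98 ± 0.23, adjusted p = 0.0392, and 0.0791 without vehicle 3). In HenGC the largest differences in these last 2 lists were those of PGI1 (-0.22) and the oxaloacetate carrier gene OAC1 (0.39), which did not pass.

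Between SoyGC and HenGC the largest difference in each list was given by IDP2 (-0.50 ± 0.18), the carnitine carrier gene CRC1 (-0.71 ± 0.15), RGI2 (-2.76 ± 0.56), ADY2 (-2.06 ± 0.43), GSM1 (-0.57 ± 0.15), RMD5 (-0.59 ± 0.11), GLK1 (-0.50 ± 0.14), PGK1 (-0.15 ± 0.19) and MPC3 (-1.05 ± 0.23). None of these 9 genes passed in limma's test, in which 0 of all genes did.

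**Figure D4:**
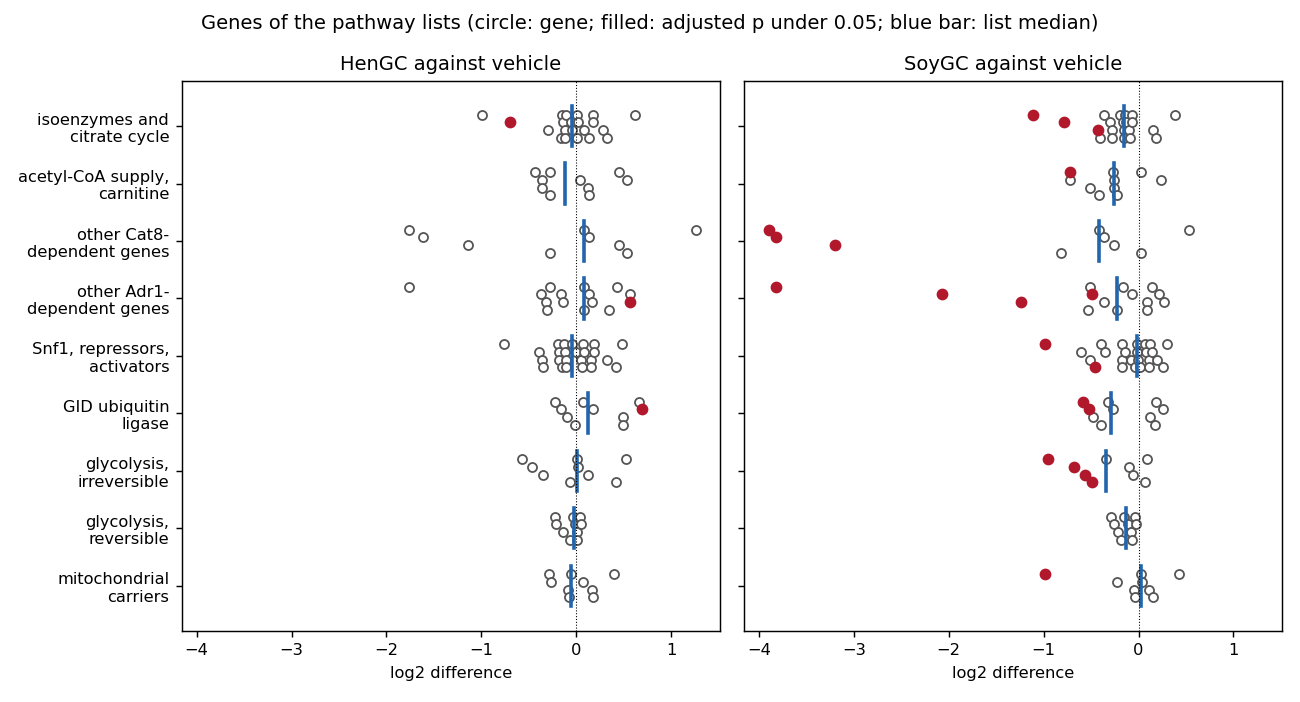
Log2 difference from vehicle (horizontal axis) of each gene in 9 lists around the members, in HenGC (left) and SoyGC (right); circles are genes, filled where the adjusted p was under 0.05, and blue bars are list medians. In SoyGC 19 distinct genes are filled and all lie below 0, with ADY2 drawn in 2 lists, and in HenGC 3 are filled.

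Likeness of pattern was measured as the root mean square difference in log2 over the 9 arrays, after each gene was centred on its own mean; the arrays share groups, slides and scan days. Among the members the closest pair was ICL1 and FBP1 (0.10), followed by SIP4 and ADR1 (0.16) and by ACS1 and ADR1 (0.18). PCK1 was nearest to the mean profile of the 7 enzyme and carrier genes (0.13), and CAT8 was farthest from it (0.59). Of all other genes tested the 8 closest to that mean profile were FIT2 (0.13), a cell wall mannoprotein of iron uptake, the water channel gene AQY1 (0.16), HXT5 (0.20), PDC6 (0.20), the polyamine exporter gene TPO3 (0.21), IDP2 (0.21), the spore wall gene OSW2 (0.21) and RIM4 (0.22), a regulator of meiosis. IDP2, the cytosolic isocitrate dehydrogenase, is on the Cat8 list. HXT5 was the gene nearest to ICL1 (0.16), MLS1 (0.27) and FBP1 (0.19), and the second nearest to PCK1 (0.17), after FIT2 (0.15).

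ACS1 had other neighbours, BIO5 (0.06), CSC1 (0.06) and the vacuolar lipase gene ATG15 (0.06), which were at -0.82, -0.76 and -0.84 in SoyGC against vehicle and fell. CAT8 was nearest to MPF1 (0.13), to MTH1, a regulator of glucose transporter genes (0.14), and to GUT2, the mitochondrial dehydrogenase of glycerol use (0.14), of which MTH1 and GUT2 rose in HenGC by 0.69 and 0.86. SFC1 was nearest to PRM4 (0.30), PHM8 (0.32) and TPO3 (0.33). All these neighbours were picked for closeness to a member on the same arrays. Differences between groups like those of the member follow from that choice and are description only.

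**Figure D5:**
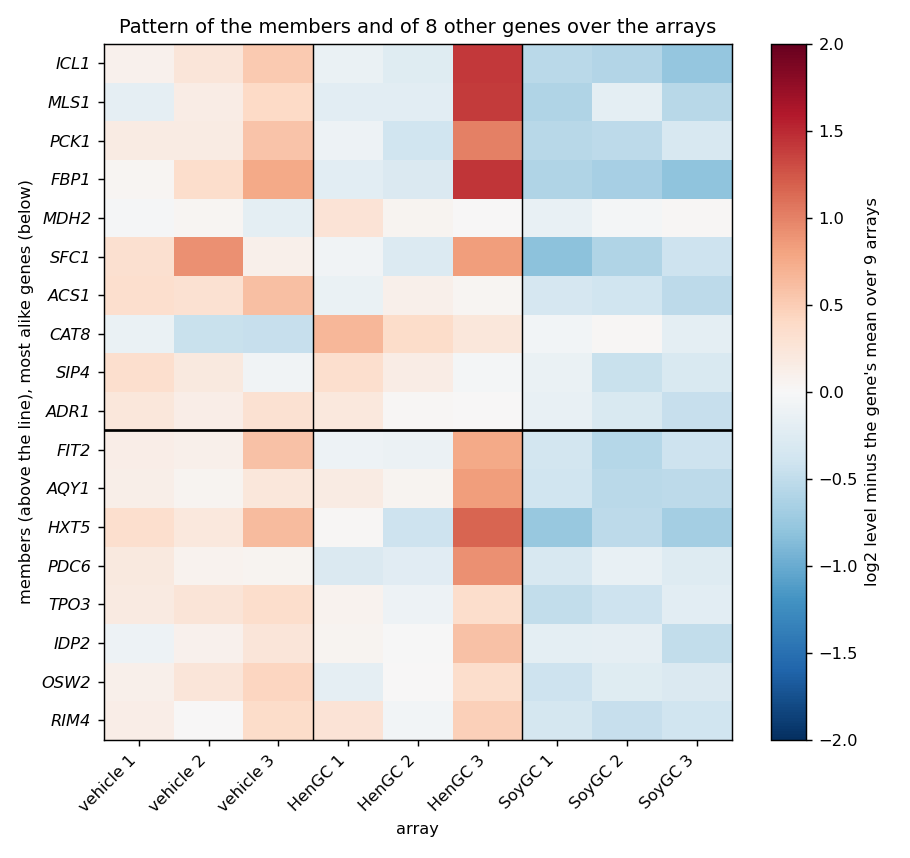
Log2 level on each array minus the gene's mean over the 9 arrays (colour) for the 10 members, above the line, and the 8 other genes closest to the mean profile of the 7 enzyme and carrier members, below it. ICL1, MLS1, PCK1 and FBP1 are highest on HenGC 3 and below their means on the SoyGC arrays, MDH2 is nearly even, and CAT8 is highest in HenGC 1.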

How the data were processed

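Total RNA of 9 samples was hybridised to Agilent arrays in 1 colour, Cy3, per the labels. Feature Extraction by Agilent, version 11.0.1.1, and R, version 3.0.2, are named in the submitters' processing notes. Per the file headers, the deposited spot files give a linear intensity after background subtraction and spatial detrending; levels were not made comparable across arrays. The authors also deposited a table whose linear intensity per probe equals the mean over its spots, and this was an alternative input. The headers name an older build than the gene table (R64) used for names, so no coordinates are given.

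The log2 of the processed signal minus each array's 75th percentile was averaged over the spots of a probe, without control and outlier spots. Probes with over 50% of spots well above background on all 3 arrays of a group were tested, with the brightest probe per gene. A mean per group was fitted to the 9 arrays with limma 3.58.1 (lmFit, eBayes) in R 4.3.3, and p-values were adjusted by Benjamini-Hochberg over 5820 genes (threshold 0.05). The fit was tested on simulated data. The precision is limited by the number of arrays.

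The members and gene lists were chosen with earlier results of these data known. Named were the members, up to 4 genes past the threshold per list and comparison by size of difference (otherwise 1 as a value), 8 genes nearest the mean profile and 3 nearest each member whose range was at least 1; ICL2, MDH1, MDH3, ACS2, MIG1, PUT4, YAT2, the HenGC values of genes named in SoyGC and the genes high on HenGC 3 lie outside this rule and were chosen after their values were seen. The files have no mean spot signal, so the normexp alternative (offset 50) used median signals. Same-numbered arrays did not deviate together throughout (correlation of deviations -0.65 to 0.56), so the replicate numbers were not taken to pair the samples. Sequences and promoter motifs were not analysed here.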

Additional observations from a re-analysis of the deposited data

Results flagged for a closer look

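The difference of HenGC from vehicle for ICL1, the isocitrate lyase gene, was -0.35 on scan day 1 and 0.90 on scan day 2, and the days differed by 1.25 on the log2 scale (interaction term in limma, adjusted p = 0.0327). Scan day 2 held 1 array per group, so this restates that HenGC 3 was high relative to vehicle 3 and is not independent support for a difference between days. The fit had 3 residual degrees of freedom and called 66 genes for HenGC and 740 for SoyGC, both against a vehicle 3 that stood apart from its group mates.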

How the results depend on the processing

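For HenGC against vehicle the members' count of 1 became 0 with quantile normalization, median scaling, the authors' deposited table, no filter on dim probes, slide as a fixed block, scan day 1 only, only the 2 groups compared, or without vehicle 3 and HenGC 3 together (a setting chosen after seeing the data), and 2 with array weights; leaving out 1 array gave 0 to 0. The related genes' count of 3 became 1 with normexp, slide as a random block, scan day 1 only or without both those arrays, 0 with the same other settings, and 23 with array weights; leaving out 1 array gave 0 to 1. For SoyGC against vehicle the members' count of 2 became 1 with quantile normalization, 0 with the authors' table, 4 with slide as a fixed block, and 5 with array weights or without both arrays; leaving out 1 array gave 0 to 6. The related genes' count of 19 became 5 with the authors' table, 10 with slide as a fixed block or without both arrays, 3 on scan day 1 only, 34 with array weights and 7 with only the 2 groups; leaving out 1 array gave 0 to 14. Between SoyGC and HenGC the related genes' count of 0 became 3 with array weights, and the members' count was 0 under every setting run. The share of all genes called moved as well. For SoyGC against vehicle it was 9.24% in the main fit, 21.4% with array weights and 3.21% with slide as a fixed block. It was 6.65% with quantile normalization, 0.137% with the authors' table, 0.859% with only the 2 groups and 0.601% on scan day 1 only. For HenGC against vehicle it was 1.19% in the main fit, 15% with array weights and 0% with slide as a fixed block. Between SoyGC and HenGC it was 0.361% with array weights. Leaving out 1 array gave shares of all genes of 0.0344% to 6.65% in SoyGC and 0.0515% to 0.859% in HenGC. The cause of these shifts was not tested, except that settings on scan day 1, on 2 groups or without arrays use fewer arrays.

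Signs changed only at differences that did not pass. For HenGC against vehicle ICL1 turned to -0.016 with median scaling, -0.093 with the authors' table, -0.10 with array weights, and -0.35 on scan day 1 only and without both arrays, and lay between -0.47 and 0.36 on leaving out 1 array. MLS1 turned to -0.19 on scan day 1 only and without both arrays, and lay between -0.33 and 0.48 without 1 array. With slide as a fixed block PCK1 turned to 0.50, FBP1 to 0.91 and SFC1 to 0.46, and ICL1 and MLS1, already positive, went to 1.08 and 1.20. Leaving out 1 array gave PCK1 between -0.55 and 0.15 and FBP1 between -0.64 and 0.23. SIP4 turned to 0.093 with normexp and 0.15 with quantile normalization, and lay between -0.12 and 0.087 without 1 array. For SoyGC against vehicle MDH2 turned to -0.053 with median scaling, -0.058 with the authors' table, -0.064 with array weights, -0.11 on scan day 1 only and -0.067 without both arrays, and lay between -0.067 and 0.052 without 1 array. In each of these ranges the sign differed between arrays left out.

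With the replicate number as a block the members' counts were 1, 3 and 0 in HenGC against vehicle, SoyGC against vehicle and SoyGC against HenGC, where SIP4 was added in SoyGC (adjusted p = 0.0389), and the related genes' counts were 2, 19 and 0. With scan day as a block these counts were 1, 3 and 0, and 4, 25 and 0. Over all genes 1.43%, 10.1% and 0% passed with the replicate number as a block, and 2.15%, 12.8% and 0% with scan day. In the labels the samples share only a number, while the third arrays also shared slide 3 and scan day 2. The correlations of deviations of same-numbered arrays were 0.29, 0.04 and 0.18 for HenGC and vehicle. They were -0.65, 0.43 and -0.45 for SoyGC and vehicle, and 0.08, 0.56 and 0.52 for SoyGC and HenGC. SFC1 and SIP4 in SoyGC were the members whose signal over background limited the values. The promoter motif description was not run.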
